A study of Mus musculus with 17 samples.

Results

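Embryoid bodies of the mouse embryonic stem cell (ESC) line D3 at day 7 of differentiation were compared, miRNA by miRNA, with undifferentiated D3 cells at day 0. The comparison rests on 5 of the 14 small RNA libraries with values. They are replicates 1, 2 and 3 at day 0 and replicates 2 and 3 at day 7, and were selected by the line, day and replicate number in their titles. Every mature miRNA of the table was considered, 1033 in all, and 521 passed the filter on low values. The labels list 17 samples in 6 groups, the lines B8 and D3 at days 0, 7 and 21, of which B8 at day 21 was not analysed here. Day 0 cells grew in medium with serum and LIF, the cytokine that holds mouse ESCs undifferentiated, and had no feeder cells. Day 7 bodies, which are round aggregates of differentiating cells, were formed in hanging drops and kept in medium without LIF and with RA, ITS and N2. The design text of the series spells out retinoic acid (RA), insulin and transferrin. No genotype, transgene or further agent is given for either group. Whether replicates were grown as separate cultures is not stated, and p-values therefore describe variation among these libraries, part of which may be technical. An embryoid body holds many cell types, and fewer cells of a type cannot be told apart from less RNA per cell.

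MicroRNAs (miRNAs) are cut from hairpin precursors. Either arm of the hairpin, 5p or 3p, can be loaded into an Argonaute protein, which finds its target mRNAs mainly through the seed, bases 2 to 8 of the miRNA. miRNAs with a common seed are grouped as a family because they can read the same target sites. Naive mouse ESCs are known for the miR-290 cluster and epiblast-like cells for the miR-302 cluster, which share a seed and favour cell division and self-renewal. In ESCs the LIN28 proteins hold back the maturation of let-7, and mature let-7 builds up as cells differentiate. miR-10a and miR-10b are encoded inside the Hox gene clusters, which pattern the body axis and respond to retinoic acid.

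The mature sequences of the families on which the results turn are shown 5′ to 3′ from RefSeq (GRCm38.p6), with the seed in capitals. The first set is the seed of the Hox-embedded miRNAs that led the day 7 libraries. The second is the seed that led the miR-290 cluster at day 0, with that of miR-182-5p, the most abundant day 0 miRNA. The third is the let-7 seed. The last 3 sets are families whose members moved apart, namely miR-181, miR-25 with miR-92, and miR-99 with miR-100.
miR-10a-5p: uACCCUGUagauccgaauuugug
miR-10b-5p: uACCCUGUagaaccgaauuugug
miR-295-3p: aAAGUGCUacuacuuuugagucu
miR-294-3p: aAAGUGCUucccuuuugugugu
miR-302d-3p: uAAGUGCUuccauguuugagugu
miR-182-5p: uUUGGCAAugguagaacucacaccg
let-7a-5p: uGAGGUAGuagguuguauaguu
let-7c-5p: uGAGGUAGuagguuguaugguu
let-7e-5p: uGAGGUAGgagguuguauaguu
miR-181a-5p: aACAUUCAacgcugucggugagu
miR-181b-5p: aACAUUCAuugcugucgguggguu
miR-181c-5p: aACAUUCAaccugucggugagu
miR-181d-5p: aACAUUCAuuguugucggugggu
miR-92b-3p: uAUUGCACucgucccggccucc
miR-25-3p: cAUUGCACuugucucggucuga
miR-92a-3p: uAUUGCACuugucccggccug
miR-99a-5p: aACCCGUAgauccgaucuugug
miR-99b-5p: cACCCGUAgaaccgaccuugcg
miR-100-5p: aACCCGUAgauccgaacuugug
Of the 1033 names in the table, 873 matched 1 mature sequence. Counted from the 5′ end, miR-10b-5p differs from miR-10a-5p by U12A (U in miR-10a-5p, A in miR-10b-5p), let-7c-5p from let-7a-5p by A19G, and let-7e-5p from let-7a-5p by U9G. Reads of members this close could be divided between them in counting, and the rule for such reads is not given in the sources used here.

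The libraries of the 2 days differed in depth, counted here in miRNA reads and not in all reads sequenced, and in makeup. Whole miRNA reads recovered from the deposited values numbered 121426, 129486 and 56377 at day 0 and 1060306 and 1008438 at day 7. A single miRNA pair dominated the later libraries. miR-10a-5p and miR-10b-5p together held 0.0807%, 0.0996% and 0.160% of the miRNA signal at day 0 and 67.0% and 63.3% at day 7. The effective number of miRNAs, the exponential of the Shannon entropy of the shares, was 42.7, 41.3 and 44.8 at day 0 and 12.2 and 14.4 at day 7. Expected numbers of miRNAs above 0 at a common depth of 56377 reads were 434, 417 and 426 at day 0 and 365.3 and 375.2 at day 7. The day 7 libraries thus held more miRNA reads and were narrower in makeup, and the groups did not overlap in any of these measures. As a check of the label, the miR-290 cluster that marks naive ESCs held 25.0%, 21.6% and 19.8% of the signal at day 0 and 0.677% and 0.660% at day 7.

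**Figure D1:**
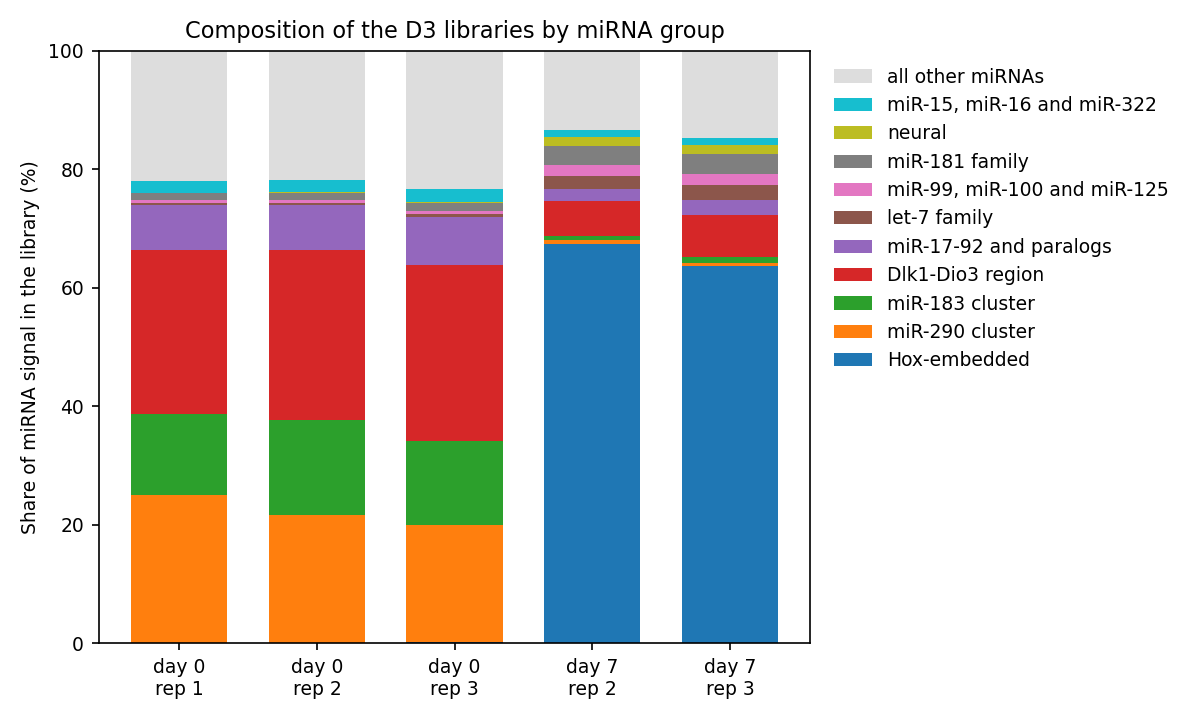
Share of the miRNA signal (%, vertical axis) taken by 10 groups of miRNAs and by all others in each of the 3 day 0 and 2 day 7 libraries, as stacked bars. The Hox-embedded group takes 67.3% and 63.6% of the day 7 libraries and at most 0.165% of a day 0 library.

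Values were compared on 2 scales. The deposited values are reads divided by a factor for each library, and their column totals were 62841, 69792 and 46965 at day 0 and 830402 and 721724 at day 7. In them 1 read stood for 0.518, 0.539 and 0.833 at day 0 and 0.783 and 0.716 at day 7. The gap in reads between the days is thus left in the deposited values, and a rise as deposited includes it. On this scale 367 of 521 miRNAs were higher at day 7 and 36 lower (limma, Benjamini-Hochberg adjusted p under 0.05), 77.4% of all tested (70.4% higher and 6.91% lower), and the median log2 change was 2.25. On the relative scale, each library was divided by its median ratio to the geometric mean of the 5 libraries over 352 miRNAs above 0 in all of them. There 325 miRNAs passed, 62.4% of all tested (37.2% higher and 25.1%, or 131, lower), with a median log2 change of 0.41. Each miRNA called higher on the relative scale was also called higher as deposited, 36 were lower on both, and 26 were higher as deposited and lower on the relative scale. Setting the column totals equal gave 112 higher and 234 lower, and the median change moved to −0.83. The other scalings tried, median-of-ratios over all 14 libraries, TMM and equal totals outside miR-10a and miR-10b, gave medians of 0.26, 0.11 and 0.36. The absolute level of a miRNA per cell cannot be read from any of these scales. Counts of called members in each group below stand against these shares of all tested miRNAs. Values below are on the relative scale unless called deposited, and are listed for day 0 replicates 1, 2 and 3 and then day 7 replicates 2 and 3. Changes are log2 of day 7 over day 0 with their standard errors.

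**Figure D2:**
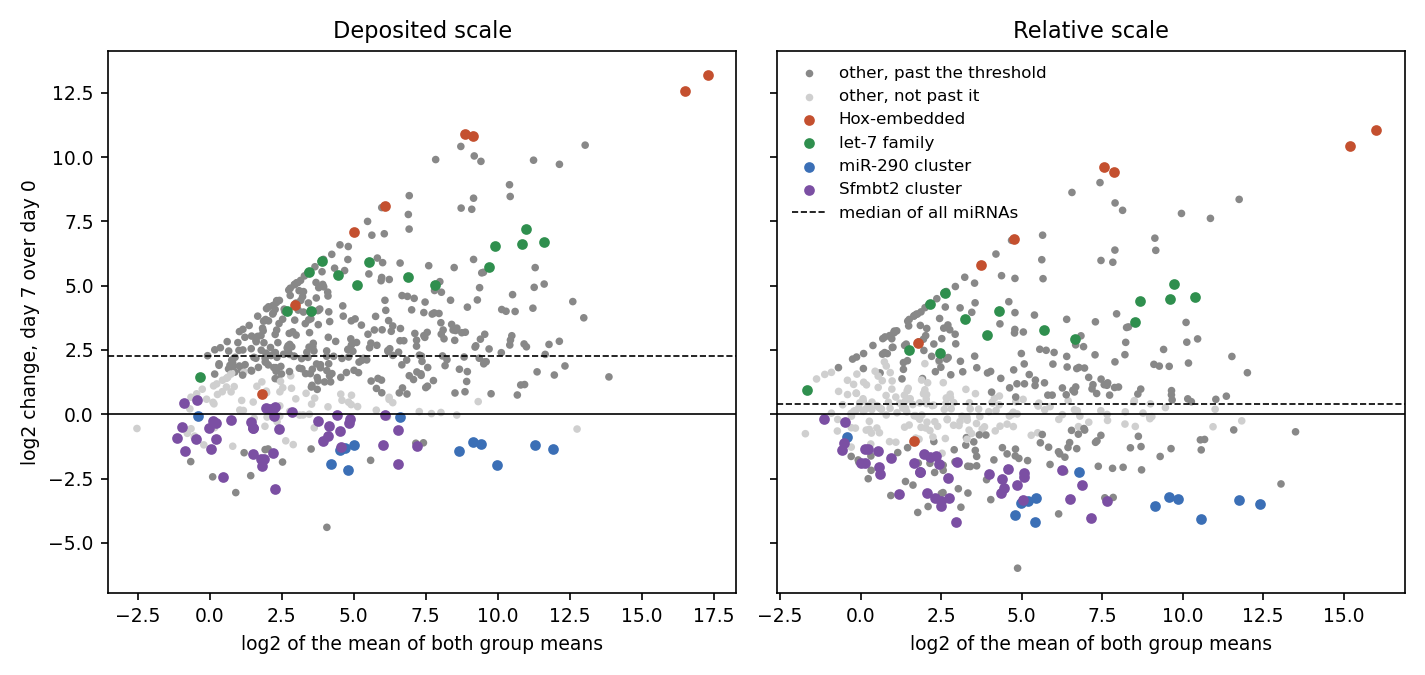
The log2 change from day 0 to day 7 (vertical axis) against the log2 mean level (horizontal axis) for the tested miRNAs, leaving out 3 at 0 in all 5 libraries, on the deposited scale (left) and the relative scale (right). The dashed line is the median of all tested miRNAs, 2.25 on the left and 0.41 on the right, miR-10a-5p and miR-10b-5p stand at the top right of both panels, and the miR-290 and Sfmbt2 clusters lie below 0 on the right.

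miR-10a and miR-10b made up most of the day 7 miRNA signal. Mir10a lies at chr11:96317165-96317274 (GRCm38) between Hoxb5os and Hoxb4, and Mir10b at chr2:74726070-74726137 in an intron of Hoxd3 and Hoxd4. miR-10a-5p had 44.8, 58.3 and 90.6 at day 0 and 142789 and 121971 at day 7. Its change was 11.05 ± 0.23 (limma adjusted p = 1.5e-16), and 13.17 ± 0.29 as deposited. miR-10b-5p had 44.8, 50.7 and 69.3 at day 0 and 82158 and 69624 at day 7, a change of 10.44 ± 0.23 (adjusted p = 2.1e-16). In reads, miR-10b-5p went from 49, 60 and 39 to 259647 and 231982, and the groups were far apart. Their passenger strands were listed at 0 in all 3 day 0 libraries. miR-10a-3p had 1333 and 1121 reads at day 7, at least 107-fold higher on the relative scale than the value of 3 reads per library, while miR-10b-3p was at least 15.5-fold higher. miR-615-3p, from the Hoxc cluster, had 0, 1 and 0 reads at day 0 and 1511 and 1499 at day 7. On the relative scale this is a ratio of 1317 (exact 95% interval 236 to 52042, counting error only). Of the 8 Hox-embedded miRNAs tested 7 rose and 1 fell, with a median change of 8.13, or 5.35 with the 3 members at 0 on day 0 set to their lower bounds. The one that fell, miR-196a-5p, is named after its values were seen: it had 7, 4 and 2 reads at day 0 and 6 and 6 at day 7 (change −1.03 ± 0.39, adjusted p = 0.028). It did not pass as deposited, with the replicate number as a block, with the 5 libraries fitted alone, in DESeq2, or without day 0 replicate 1, day 7 replicate 2 or day 7 replicate 3, whereas the 7 that rose did so under every scaling tried.

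The pluripotency clusters were lower at day 7 on the relative scale. The miR-290 cluster at chr7:3218626-3220841 encodes miRNAs that speed the ESC cell cycle, and 12 of its 13 tested members were lower at day 7, 11 of them also as deposited. miR-295-3p had 11345, 10213 and 8119.7 at day 0 and 982 and 795 at day 7. Its change was −3.47 ± 0.29 (adjusted p = 1.2e-08). miR-292a-5p had 7758, 6060.1 and 5055 at day 0 and 634 and 583 at day 7, a change of −3.35 ± 0.18. In both cases the lowest day 0 library stood above the highest day 7 library many times over. miR-293-3p had 2904, 2847 and 2893 at day 0 and 173 and 164 at day 7, the steepest of the 3 abundant members (change −4.09 ± 0.19, adjusted p = 5.2e-12). The single member that missed the threshold, miR-291b-5p, had 2 reads or fewer in every library. The median change of the cluster was −3.36, against 0.41 for all miRNAs, and no scaling made any member higher.

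The miR-302 cluster, which lies antisense to a Larp7 intron at chr3:127545228-127545807, was a small part of these ESCs, at 0.175%, 0.187% and 0.176% of the signal on day 0 and 0.0190% and 0.0251% on day 7. Of 7 members tested 6 were lower on the relative scale, but as deposited 1 was lower and 1 higher. miR-302d-3p had 105, 115 and 92.4 at day 0 and 35.1 and 39.9 at day 7 (change −1.46 ± 0.20, adjusted p = 7.7e-06; as deposited 0.66 ± 0.31, adjusted p = 0.058). miR-302b-3p had 16.4, 27.9 and 26.7 at day 0 and 15.8 and 17.4 at day 7, and its groups overlapped (change −0.46 ± 0.38, adjusted p = 0.32). The median change was −1.72, smaller in size than the −3.36 of the miR-290 cluster. That difference between the clusters was not tested.

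The miR-183 cluster, which serves sensory organs and is also abundant in stem cells, lies at chr6:30165918-30169737. It held 13.6%, 15.95% and 14.1% of the day 0 signal and 0.649% and 0.887% of the day 7 signal. All 6 members were lower on the relative scale, and 1 of the 6 as deposited. miR-182-5p, the most abundant day 0 miRNA, had 14307, 16682 and 13368 at day 0 and 2024 and 2508 at day 7. Its relative change was −2.71 ± 0.15 (adjusted p = 5.5e-11), and as deposited it was −0.57 ± 0.28 (adjusted p = 0.067). miR-183-5p had 673, 721 and 682 at day 0 and 142.1 and 168 at day 7, a change of −2.16 ± 0.16, while its deposited change was −0.03 ± 0.27 (adjusted p = 0.93).

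The let-7 family rose. Its members restrain cell cycle and growth genes and accumulate as cells leave the pluripotent state. let-7a-5p had 101, 86.2 and 143.9 at day 0 and 2488 and 2612 at day 7, a change of 4.56 ± 0.18 (adjusted p = 7.8e-13). let-7e-5p, which shares a transcript with miR-125a at chr17:17830352-17830879, had 51.2, 43.9 and 51.5 at day 0 and 1577 and 1737 at day 7 and a change of 5.07 ± 0.17. let-7c-5p had 68.5, 56.6 and 74.6 at day 0 and 1475 and 1487 at day 7 (change 4.48 ± 0.20). Day 0 and day 7 were far apart for all 3. Of 15 members tested 14 rose, on the relative scale and as deposited, and 12 with equal column totals. The median was 3.70, or 3.26 with the 3 members at 0 on day 0 set to their bounds. let-7b-3p, with 4 reads in 1 day 7 library, was the exception. All 9 members with the let-7 seed rose, and let-7a-5p led the family on both days. It was 29.5%, 28.1% and 34.2% of that seed's signal at day 0 and 33.7% and 34.6% at day 7, while let-7e-5p went from 15.0%, 14.3% and 12.2% to 21.4% and 23.0% and let-7g-5p from 15.0%, 16.3% and 16.03% to 9.18% and 8.87%.

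miR-99, miR-100 and miR-125, which are encoded beside let-7 genes, rose in 9 of 9 members under every scaling, with a median of 5.91. The 3 members of the miR-99 family that share a seed rose by different amounts. miR-99b-5p was already present in ESCs, at 279, 287 and 277 at day 0 and 1932 and 1994 at day 7 (change 2.80 ± 0.23, adjusted p = 1.3e-08). miR-100-5p had 1.83, 3.38 and 19.5 at day 0 and 469 and 469 at day 7 (change 6.38 ± 0.58), with day 0 replicate 3 above the other 2. miR-99a-5p had 0, 1 and 0 reads at day 0 and 1156 and 1087 at day 7, a ratio of 982 (exact 95% interval 176 to 38786). As a share of the family, miR-99b-5p went from 99.3%, 98.6% and 93.4% to 69.8% and 71.5%. miR-125a-5p, which is encoded near let-7e and miR-99b, had 211.1, 162 and 146 at day 0 and 2047 and 2024 at day 7 and a change of 3.57 ± 0.18.

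miR-181a and miR-181b, known from lymphoid and neural tissue, overtook miR-181c and miR-181d as the bulk of their family. miR-181a-5p had 17.4, 17.7 and 28.4 at day 0 and 7179 and 6636 at day 7, a change of 8.35 ± 0.29 (adjusted p = 1.4e-13). miR-181b-5p had 11.0, 7.60 and 7.11 at day 0 and 2099 and 1885 at day 7 and a change of 7.81 ± 0.29. By contrast miR-181c-5p had 542, 658 and 574 at day 0 and 246 and 247 at day 7 (change −1.26 ± 0.15, adjusted p = 1.2e-06). miR-181d-5p had 638, 603 and 693 at day 0 and 757 and 787 at day 7, which did not pass the test (change 0.26 ± 0.19, adjusted p = 0.26). Together miR-181c-5p and miR-181d-5p went from nearly the whole family to a small part of it. In shares of the family, miR-181a-5p was 1.44%, 1.38% and 2.18% at day 0 and 69.8% and 69.4% at day 7, and miR-181c-5p was 44.9%, 51.1% and 44.1% and then 2.39% and 2.59%. The family summed over its 4 members rose by 2.97 ± 0.24. Mir181a and Mir181b are paired at chr1:137966455-137966718 and at chr2:38852735-38853918, while Mir181d lies on chromosome 8 in an intron of Nanos3. The 3p strand of the chromosome 1 precursor, miR-181a-1-3p, had 1 read in each day 0 library and 1576 and 1523 at day 7, a ratio of 452 (exact 95% interval 154.5 to 2193). With equal column totals miR-181d-5p turned to −1.32 (adjusted p = 4.25e-06), and miR-181c-5p was higher as deposited (0.88 ± 0.25).

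Of 16 neural miRNAs tested 11 rose on the relative scale, none fell and 5 did not pass, where 37.2% of all tested miRNAs rose and 25.1% fell. miR-9-5p, a miRNA of neural progenitors that is encoded at 3 loci, had 9.14, 25.3 and 26.7 at day 0 and 3992 and 3432 at day 7. Its change was 7.61 ± 0.32 (adjusted p = 1.7e-12), and it became 1.16% of the day 7 signal. miR-219a-2-3p, known from the oligodendrocyte lineage, had 1, 2 and 2 reads at day 0 and 1885 and 1752 at day 7, a ratio of 318 (exact 95% interval 136 to 981). miR-128-3p, broadly neuronal, had 74.9, 71.8 and 53.3 at day 0 and 130.4 and 123 at day 7 (change 0.93 ± 0.23). It did not pass under TMM (adjusted p = 0.052) and turned to −0.63 with equal column totals. All 16 neural miRNAs rose as deposited, as did 70.4% of all tested miRNAs, and with equal column totals 6 rose and 2 fell. The median was 2.13, or 1.85 with the member at 0 on day 0 at its bound. miR-212-3p had 10.1, 5.91 and 28.4 at day 0 and 11.4 and 11.1 at day 7, overlapping groups and an adjusted p of 0.90. The list's summed share went from 0.128%, 0.131% and 0.172% to 1.497% and 1.45%, and miR-9-5p alone was 1.19% and 1.13% at day 7.

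Markers of mesenchyme and smooth muscle, which would also mark fibroblast feeder cells, were low at day 0 and higher at day 7. miR-214-3p, from the Dnm3os transcript at chr1:162217814-162223477, was listed at 0 in all day 0 libraries and had 547 and 685 reads at day 7, at least 53.6-fold higher. miR-199a-3p and miR-199b-3p have the same mature sequence in RefSeq, so their separate entries cannot be told apart. miR-199a-3p had 6.40, 8.45 and 14.2 at day 0 and 984 and 1253 at day 7 and a change of 6.85 ± 0.36 (adjusted p = 2.9e-11). miR-143-3p, a smooth muscle miRNA, was already present at day 0, with 199.2, 189 and 216.8 at day 0 and 1084 and 1236 at day 7 (change 2.52 ± 0.19, adjusted p = 3.8e-09). Of 11 members 9 rose and none fell, with a median of 4.33, or 3.87 with the 3 members at 0 on day 0 at their bounds. All 11 rose as deposited, and 1 fell under TMM and with equal column totals. Among all tested miRNAs 37.2% rose and 25.1% fell on the relative scale, and 70.4% rose as deposited. The summed share was 0.207% to 0.270% at day 0 and 1.02% and 1.38% at day 7. The miR-140 arms, known from cartilage, were the 2 that missed the threshold, and miR-140-3p had 11.0, 11.0 and 15.99 at day 0 and 9.18 and 6.90 at day 7.

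Heart and skeletal muscle miRNAs were near the limit of detection. Of 13 such miRNAs, 7 were listed at 0 in all 5 libraries, among them miR-206-3p and both miR-208a arms. The 4 that were tested gave 2 rises on the relative scale, 4 as deposited and 1 with equal column totals. Of all tested miRNAs 37.2% rose on the relative scale and 70.4% as deposited. miR-1a-3p had 0 reads at day 0 and 7 and 10 at day 7, and its day 7 level on the relative scale lies below that of 3 reads at day 0. miR-133a-3p had 0, 1 and 0 reads and then 9 and 11, a ratio of 8.75 (exact 95% interval 1.40 to 362.7). Its adjusted p of 0.022 became 0.076 in edgeR on recovered reads and lay between 0.059 and 0.094 without each of 4 of the 5 libraries. The list held at most 0.00327% of the signal in any library.

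On the relative scale 6 of 11 endodermal miRNAs rose and none fell, and 6 of 11 epithelial miRNAs fell and 1 rose. The difference between these lists was not tested. Over all tested miRNAs 37.2% rose and 25.1% fell on that scale, and 70.4% rose and 6.91% fell as deposited. The pancreatic miRNAs miR-216b-5p and miR-217-5p were listed at 0 at day 0. They had 64 and 58 reads and 25 and 31 reads at day 7, at least 5.33-fold and 2.43-fold higher. miR-375-3p, of pancreatic islets and gut, had 23.8, 16.9 and 21.3 at day 0 and 41.8 and 53.1 at day 7 (change 1.18 ± 0.28, adjusted p = 0.0014). miR-192-5p, of liver and gut, had 58.5, 104 and 72.8 at day 0 and 81.3 and 69.9 at day 7 and did not pass the test (change −0.02 ± 0.24). The endodermal median was 1.18 or, with the 5 members at 0 on day 0 at their bounds, 0.67. These 5, all miR-216 and miR-217 entries, were among the 6 that rose. The summed endodermal share went the other way, from 0.0791%, 0.121% and 0.110% at day 0 to 0.0556% and 0.0571% at day 7. As deposited 9 endodermal miRNAs rose and none fell, and with equal column totals 5 rose and 2 fell. Of the epithelial miRNAs 6 rose and 1 fell as deposited, none rose and 10 fell with equal column totals, and the single rise on the relative scale was lost without day 7 replicate 2. miR-429-3p had 112, 122 and 107 at day 0 and 64.2 and 83.7 at day 7 (change −0.63 ± 0.18), and without day 7 replicate 2 it did not pass (adjusted p = 0.12). miR-200a-3p had 30.2, 38.0 and 37.3 at day 0 and 12.02 and 11.4 at day 7 (change −1.54 ± 0.26). miR-205-5p, a keratinocyte miRNA, had 245, 193 and 222 at day 0 and 164 and 210.7 at day 7, with overlapping groups (change −0.24 ± 0.20, adjusted p = 0.32).

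Blood and endothelial miRNAs included members called in each direction. miR-126a, encoded in the endothelial gene Egfl7, rose in both arms: miR-126a-5p had 84.1, 82.0 and 62.2 at day 0 and 539 and 514 at day 7 (change 2.80 ± 0.26, adjusted p = 5.7e-08) and miR-126a-3p changed by 2.25 ± 0.27. The lymphoid miRNA miR-150-5p had the largest fall of any tested miRNA, from 67, 63 and 34 reads at day 0 to 1 and 2 at day 7. The ratio on the relative scale was 125-fold lower (exact 95% interval 42.0 to 612, counting error only), and it fell as deposited as well (−4.39 ± 0.48, adjusted p = 9.7e-09). miR-142a-5p, of blood cells, had 16, 22 and 9 reads and then 4 and 2 (change −3.61 ± 0.29). miR-486a-5p, an erythroid and muscle miRNA, had 15.5, 15.2 and 10.7 at day 0 and 75.9 and 85.8 at day 7 (change 2.53 ± 0.34). Of 10 members tested 4 rose and 4 fell under the 5 scalings other than the deposited one, and 5 rose and 3 fell as deposited. On the relative scale 37.2% of all tested miRNAs rose and 25.1% fell, so the list's share of rises is near that of all miRNAs. The blood-defining miR-223-3p and miR-451a were listed at 0 in all 5 libraries, and whether other cells in the cultures bear on these values was not tested.

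**Figure D3:**
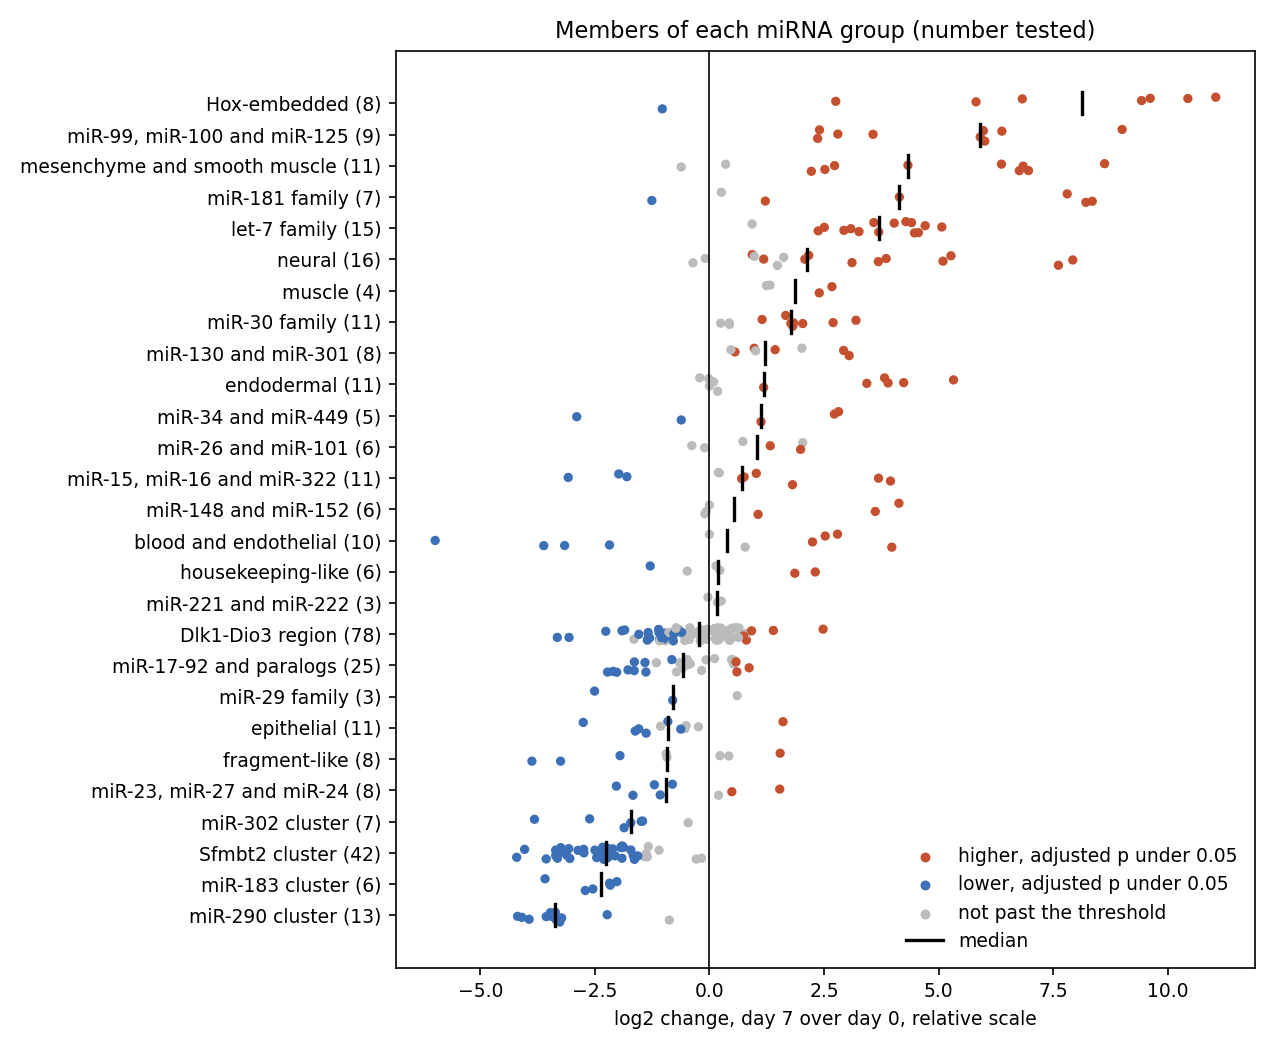
The log2 change from day 0 to day 7 on the relative scale (horizontal axis) of each tested member of 27 miRNA groups, with the number tested in brackets and the group median as a black bar. Medians run from 8.13 for the Hox-embedded group to −3.36 for the miR-290 cluster, and the 78 miRNAs of the Dlk1-Dio3 region centre on −0.24.

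The cell cycle clusters related to miR-17-92 lie at 3 loci, whose difference was not tested. In the copy on the X chromosome at chrX:52741693-52742567, 6 of 9 miRNAs fell and none rose. At chr14:115043671-115044506 in Mir17hg 2 of 10 fell, and at chr5:138165321-138165818 in Mcm7 3 of 6 rose and 1 fell. miR-19b-3p and miR-92a-3p arise from both the X and chromosome 14 copies and are counted in each. miR-92a-3p had 2454, 1932 and 2255 at day 0 and 770.2 and 924 at day 7 (change −1.38 ± 0.21, adjusted p = 1.7e-05). miR-25-3p, from Mcm7, had 1521, 1763 and 1757 at day 0 and 2369 and 2657 at day 7 (change 0.58 ± 0.15), and miR-93-5p, from the same cluster, 882, 934 and 917 at day 0 and 1349 and 1412 at day 7 (change 0.60 ± 0.18). The direction of these last 2 depends on the scale: with equal column totals they turned to −0.996 and −0.98, and under TMM neither passed. Over the list of 25, 3 rose and 9 fell on the relative scale, against 13 and 0 as deposited and 0 and 20 with equal column totals. The number that rose was 0 under TMM and 6 with the 5 libraries fitted alone. Its share of the signal was 7.62%, 7.67% and 8.23% and then 2.06% and 2.44%.

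The miR-15 and miR-16 family, which slows the cell cycle, had members called in each direction. miR-322-5p, from the X chromosome, had 12.8, 11.8 and 10.7 at day 0 and 152 and 163 at day 7, a change of 3.69 ± 0.23 (adjusted p = 2.1e-10). miR-16-5p, the bulk of the family, had 1980.0, 2009.9 and 2011 at day 0 and 3208 and 3307 at day 7 (change 0.70 ± 0.15), which did not pass under TMM (adjusted p = 0.070) and turned to −0.87 with equal column totals. miR-195a-5p and miR-497a-5p, paired at chr11:70234717-70235135, fell by 1.98 ± 0.40 and 1.80 ± 0.32. On the list 6 of 11 rose and 3 fell, against 2 and 5 with equal column totals. Of all tested miRNAs 37.2% rose and 25.1% fell on the relative scale, so the list's share of falls is near that of all miRNAs.

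In the imprinted Dlk1-Dio3 region on chromosome 12, whose maternal allele encodes the largest miRNA cluster of the mouse, the call depended on the scale. Of 78 members tested 59 rose and 1 fell as deposited, 6 rose and 21 fell on the relative scale, and 0 rose and 52 fell with equal column totals. Among all 521 tested miRNAs 70.4% rose and 6.91% fell as deposited, and 37.2% rose and 25.1% fell on the relative scale. With equal column totals 112 of the 521 rose and 234 fell. The region's shares of rises as deposited and of falls on the relative scale are thus near those of all miRNAs, while fewer of its members rose on the relative scale. The 6 that rose on the relative scale became 3 without day 0 replicate 3 or day 7 replicate 2 and 1 without day 7 replicate 3. The region held 27.7%, 28.7% and 29.7% of the day 0 signal and 5.99% and 7.16% of the day 7 signal. miR-127-3p, which lies opposite Rtl1 at chr12:109592846-109592915, had 14045, 14976 and 14093 at day 0 and 8728 and 9192 at day 7. Its change was −0.68 ± 0.15 (adjusted p = 9.0e-04) on the relative scale and 1.45 ± 0.25 as deposited. miR-411-5p and miR-409-3p changed by −0.98 ± 0.15 and −0.99 ± 0.16. miR-410-3p had 1693, 2142 and 1956 at day 0 and 2161 and 2237 at day 7 (change 0.19 ± 0.15, adjusted p = 0.29). The region's median relative change was −0.24, against 0.41 for all miRNAs.

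The rodent-specific cluster named for Sfmbt2, whose intron encodes most of it, had no member called higher under any scaling. Of 42 members tested 35 were lower and none higher on the relative scale, and 12 were lower as deposited. miR-467c-5p had 263, 259 and 279 at day 0 and 14.2 and 17.7 at day 7 (change −4.03 ± 0.19, adjusted p = 5.2e-12). miR-669a-5p had 353, 397 and 352 at day 0 and 40.2 and 31.2 at day 7 (change −3.35 ± 0.19). Members of this cluster are near-copies of each other, so single values are uncertain, but the summed share also fell, from 1.48%, 1.64% and 1.67% to 0.0623% and 0.0700%.

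Among broadly expressed families, the miR-30 family rose in 8 of 11 members and none fell, whereas equal column totals left 2 higher and 2 lower. Of all tested miRNAs 37.2% rose and 25.1% fell on the relative scale, and 70.4% rose as deposited. miR-30a-5p had 76.7, 102 and 103 at day 0 and 391 and 377 at day 7 (change 2.04 ± 0.20, adjusted p = 1.3e-07) and miR-30d-5p 101, 82.8 and 94.2 at day 0 and 202 and 208.3 at day 7 (change 1.15 ± 0.22). miR-26a-5p, from introns and exons of the Ctdsp genes, had 519.9, 471 and 416 at day 0 and 1862 and 1853 at day 7 (change 1.99 ± 0.17). On its list 2 of 6 members rose, a share near that of all miRNAs. As deposited all 6 rose, and with equal column totals 2 fell. miR-301a-3p, in an intron of Ska2, had 282, 399 and 313 at day 0 and 2535 and 2467 at day 7, a change of 2.93 ± 0.17. The changes of miR-130a-3p and miR-130b-3p, which share its seed, were 0.56 ± 0.16 and 0.98 ± 0.17, and the difference between members was not tested. miR-130a-3p did not pass under TMM (adjusted p = 0.26) and turned to −1.02 with equal column totals and miR-130b-3p to −0.60. Of the miR-148 and miR-152 list 3 of 6 rose, with miR-152-3p at 0 reads at day 0 and 14 and 22 at day 7, at least 1.56-fold higher, and miR-148a-3p at 447, 582 and 529 at day 0 and 411 and 565 at day 7 (change −0.10 ± 0.23). None of the 3 tested miR-221 and miR-222 entries passed on the relative scale, and miR-221-3p had 89.5, 116 and 78.2 at day 0 and 109 and 102 at day 7.

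miR-27a and miR-27b, which differ by C19U, went opposite ways. miR-27b-3p had 965, 1118 and 1007 at day 0 and 1456 and 1431 at day 7 (change 0.49 ± 0.14, adjusted p = 0.0060) and miR-27a-3p 133.4, 127 and 112 at day 0 and 37.3 and 39.9 at day 7 (change −1.67 ± 0.26, adjusted p = 2.8e-05). The rise of miR-27b-3p turned to −1.09 with equal column totals and did not pass under TMM, median-of-ratios over all libraries or without day 7 replicate 2 (adjusted p = 0.051), whereas miR-27a-3p was 0.45 ± 0.35 as deposited. Their clusters lie at chr13:63300712-63301275 and chr8:84208518-84208921. In the miR-34 and miR-449 list, which holds p53 targets and miRNAs of ciliated cells, miR-34c-5p had 116, 131.8 and 131 at day 0 and 269.6 and 283 at day 7 (change 1.13 ± 0.24) and miR-34a-5p 137.97, 171 and 143.9 at day 0 and 104 and 92.4 at day 7 (change −0.61 ± 0.20). miR-449a-5p, in an intron of Cdc20b, had 16, 18 and 8 reads and then 8 and 3 (change −2.89 ± 0.63, adjusted p = 6.5e-04). These calls are on the relative scale. Without day 7 replicate 3 miR-34a-5p did not pass (adjusted p = 0.12), which left 1 of 5 members lower. miR-34a-5p was higher as deposited (1.51 ± 0.27), and miR-34c-5p turned to −0.45 with equal column totals. In the miR-29 list miR-29a-3p had 16.4, 13.5 and 19.5 at day 0 and 10.8 and 7.80 at day 7 (change −0.80 ± 0.26, adjusted p = 0.012), which lost its call without day 7 replicate 3 (adjusted p = 0.18) or with the 5 libraries fitted alone (adjusted p = 0.055).

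Other abundant miRNAs can be set against these. miR-22-3p, a miRNA of many tissues, had 3764, 4154 and 4037 at day 0 and 3425 and 3247 at day 7 and did not pass on the relative scale (change −0.26 ± 0.14, adjusted p = 0.13). miR-191-5p, often used as a reference, had 2294, 2346 and 2265 at day 0 and 1609.6 and 1680.4 at day 7 (change −0.48 ± 0.22, adjusted p = 0.068). It was lower with the 5 libraries fitted alone (adjusted p = 0.0030), median-of-ratios over all libraries (0.018), TMM (0.0023), equal column totals (4.30e-08) and equal totals outside miR-10a and miR-10b (0.020). miR-22-3p was also lower with the 5 libraries fitted alone (adjusted p = 0.044), median-of-ratios over all libraries (0.033), TMM (0.0044), equal column totals (1.95e-08) and DESeq2 (0.048). Of others often used as references, miR-103-3p changed by 1.86 ± 0.20, miR-107-3p, which differs from it by G22C, by 2.31 ± 0.22, and miR-425-5p by −1.29 ± 0.18. With equal column totals miR-103-3p did not pass (adjusted p = 0.29). miR-298-5p, near the imprinted Nespas transcript, had 1260.0, 932 and 917 at day 0 and 5359 and 4418 at day 7 (change 2.25 ± 0.26, adjusted p = 8.6e-07). Of 8 entries that resemble fragments of other RNAs, 1 rose, 3 fell and 4 did not pass on the relative scale. As deposited 3 rose and 2 fell. Of all tested miRNAs 37.2% rose and 25.1% fell on the relative scale, and 70.4% rose and 6.91% fell as deposited. Among these entries miR-2137 had 367, 386 and 291 at day 0 and 39.2 and 33.0 at day 7 (change −3.25 ± 0.36).

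Summed by seed, 125 of 345 families were higher and 63 lower on the relative scale, 54.5% of all tested (36.2% and 18.3%). The seed ACCCUGU of miR-10a-5p and miR-10b-5p went from 0.113% ± 0.0412 (SD, n = 3) to 65.2% ± 2.65 (SD, n = 2) of the signal. The seed AAGUGCU, shared by miR-294-3p, miR-295-3p and miR-302 members, went from 9.59% to 0.309% on average (change −3.37 ± 0.28, adjusted p = 1.1e-08). CUCAAAC of miR-292a-5p went from 6.89% to 0.220% (change −3.38 ± 0.17), and GAGGUAG of let-7 from 0.336% to 2.35% (change 4.40 ± 0.16). In contrast AAAGUGC, which is the same core shifted by a base and belongs to miR-17, miR-20, miR-93 and miR-106, did not pass (change 0.18 ± 0.19, adjusted p = 0.46). Within that family miR-106a-5p and miR-20b-5p of the X copy fell by 2.02 ± 0.25 and 2.10 ± 0.30, while miR-93-5p and miR-106b-5p rose by 0.60 ± 0.18 and 0.87 ± 0.27.

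Of 55 families with at least 2 tested members, 11 had every member higher, 4 had every member lower and 8 had members called in both directions. In AUUGCAC, miR-92b-3p had 2418, 1648 and 2088 at day 0 and 6562 and 5877 at day 7 (change 1.62 ± 0.30, adjusted p = 1.7e-04), while miR-92a-3p, miR-363-3p and miR-367-3p fell by 1.38 ± 0.21, 0.82 ± 0.17 and 1.49 ± 0.59. Of these, miR-367-3p was near the limit of detection, at no more than 0.0839% of the family in any library, so its fall is uncertain. miR-92b-3p went from 36.6%, 29.6% and 32.9% of that family to 66.7% and 61.3%, and the family sum changed by 0.66 ± 0.19 (adjusted p = 0.0077). With equal column totals miR-92b-3p changed by 0.04 (adjusted p = 0.91). The order of members within a family does not depend on the library factors.

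**Figure D4:**
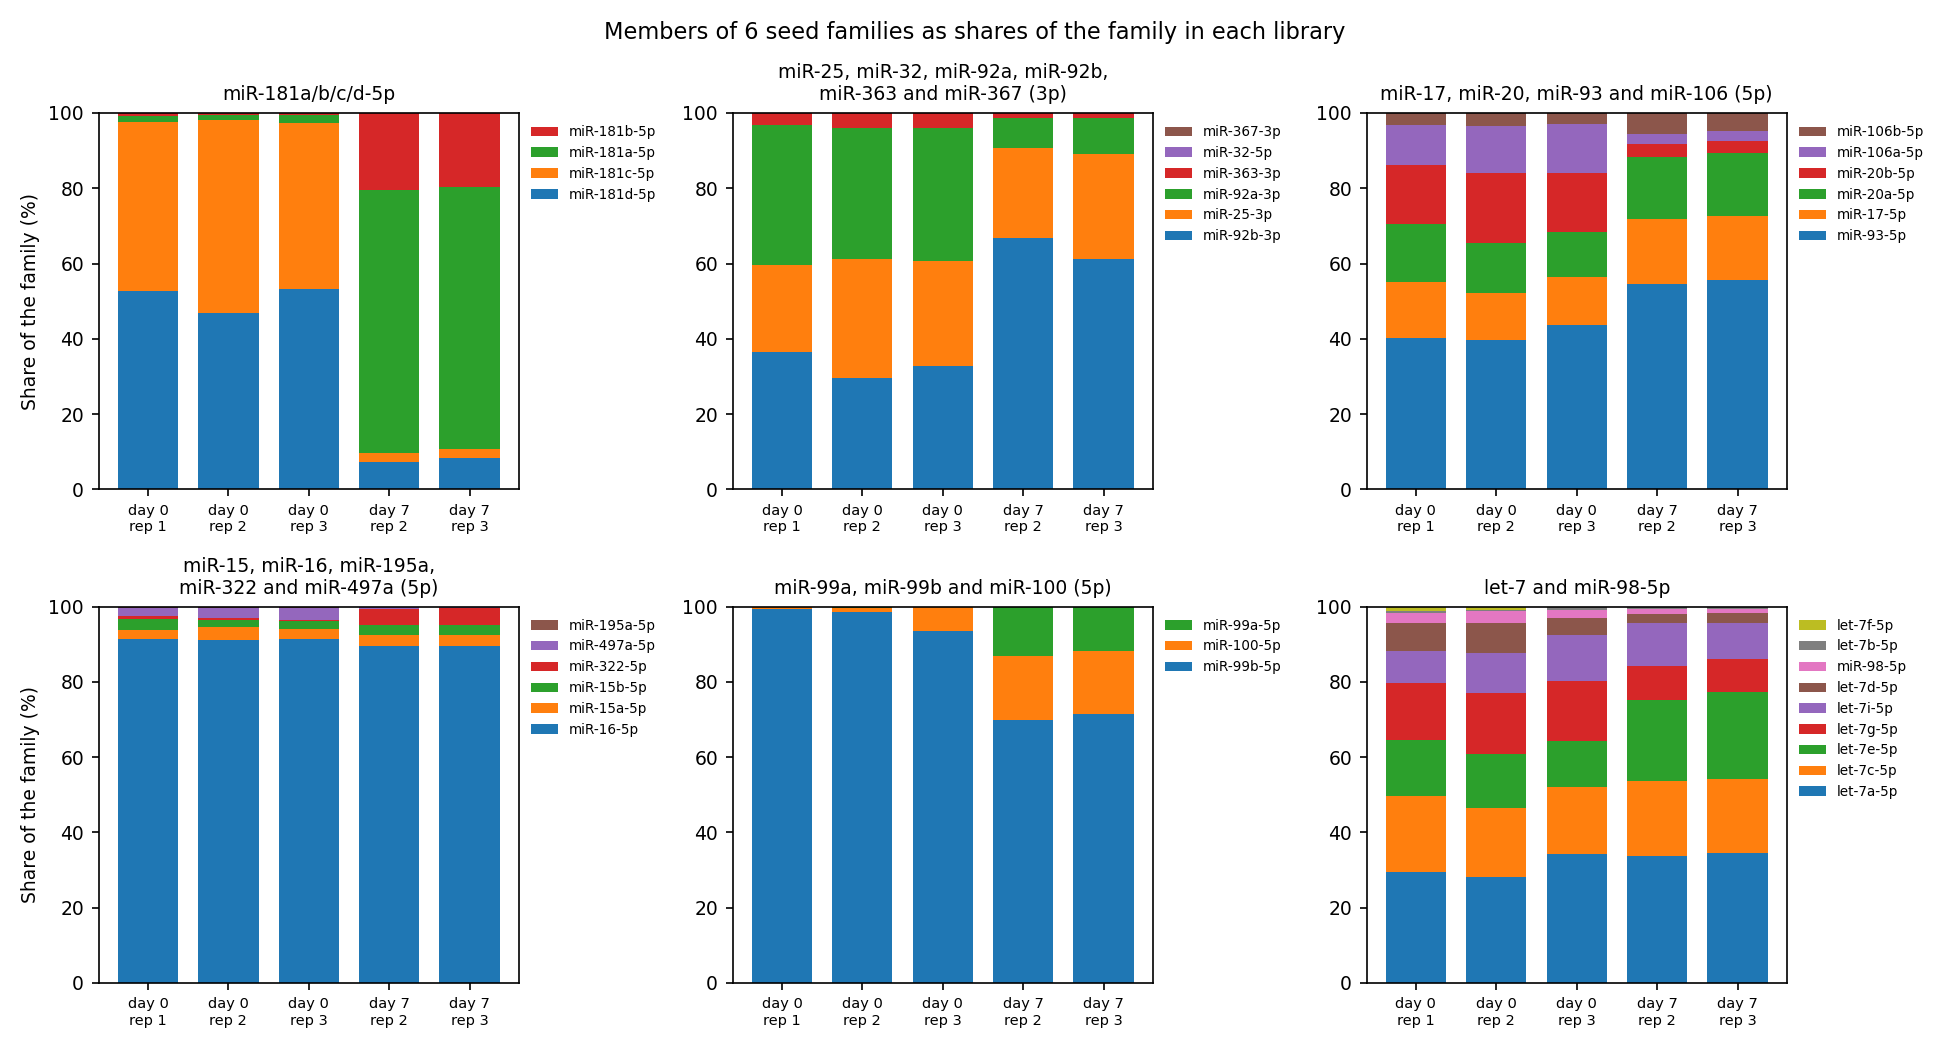
Share of each member in the signal of its seed family (%, vertical axis) in the 3 day 0 and 2 day 7 libraries, for 6 families. miR-181a-5p goes from at most 2.18% to 69.4% or more of its family and miR-92b-3p from at most 36.6% to 61.3% or more, while miR-16-5p stays between 89.4% and 91.4%.

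The ratio of the 2 arms of a hairpin is also free of library factors. Of 46 hairpins with at least 10 reads per arm on average in both groups, 16 differed between the days, 34.8% of those tested. Of these 4 moved towards the 5p arm (8.7%) and 12 towards the 3p arm (26.1%). The arms of the hairpins with the largest shifts each way are shown from RefSeq, seed in capitals.
miR-181c-5p: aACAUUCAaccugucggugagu
miR-181c-3p: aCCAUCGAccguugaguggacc
miR-335-5p: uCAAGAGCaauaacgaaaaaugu
miR-335-3p: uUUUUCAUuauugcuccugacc
The 5p arm of miR-181c made up 81.5%, 84.7% and 82.2% of its hairpin's reads at day 0 and 44.3% and 48.4% at day 7 (log2 ratio change −2.47 ± 0.23, adjusted p = 5.4e-07). Its 3p arm shares its seed with miR-181a-1-3p, and reads of such close copies could be divided in counting. miR-335, in an intron of the imprinted gene Mest at chr6:30741299-30741396, went the other way, from 22.7%, 23.8% and 30.8% 5p to 59.0% and 64.4% (change 2.22 ± 0.28, adjusted p = 1.1e-05). In both hairpins the arm in the majority at day 0 gave way, and the groups did not overlap. The 5p arm of miR-294 went from 24.9%, 33.8% and 37.7% to 9.09% and 10.7% (change −2.04 ± 0.30). miR-30e, whose seed arm 5p is broadly expressed, went from 40.9% and 44.3% 5p in day 0 replicates 1 and 2 and an even split in replicate 3 to 24.0% and 23.7% (change −1.39 ± 0.26). For miR-25 and miR-27b the 5p arm was at most 1.56% of reads throughout and became scarcer still, by 2.32 ± 0.42 and 1.66 ± 0.31. miR-21a, miR-125a and miR-17 moved further to their 5p arms, by 1.75 ± 0.40, 1.27 ± 0.37 and 1.08 ± 0.32. miR-125a lost its call without day 7 replicate 2 (adjusted p = 0.094) or replicate 3 (adjusted p = 0.054). miR-17 lost it without day 0 replicate 3 (adjusted p = 0.068), day 7 replicate 2 (adjusted p = 0.065) or day 7 replicate 3 (adjusted p = 0.095).

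**Figure D5:**
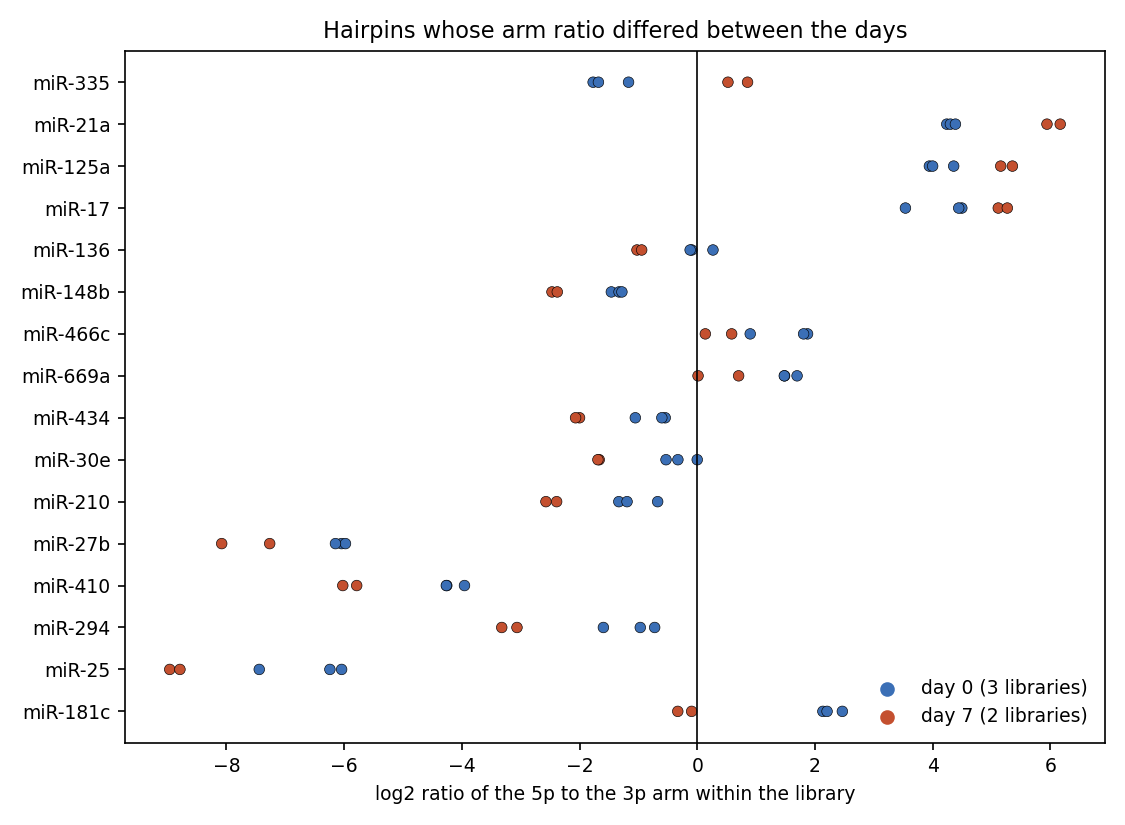
The log2 ratio of the 5p to the 3p arm (horizontal axis) in each of the 3 day 0 (blue) and 2 day 7 (red) libraries for the 16 hairpins whose ratio differed. miR-335 crosses from below 0 to above 0, and miR-181c crosses the other way.

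Calls were also counted by genomic cluster. Of 34 clusters with at least 3 tested miRNAs from at least 2 precursors within 10 kb of each other, 15 held miRNAs called higher and none lower, 11 lower and none higher, 5 both and 3 none. miRNAs encoded at several loci are counted at each of them. A single call was enough to place a cluster, and 62.4% of all tested miRNAs were called. The miR-191 and miR-425 cluster counts as lower with 1 of 4 called and the Mir17hg cluster with 2 of 10. The miR-132 and miR-212 cluster counts as higher with 1 of 3. The clusters with the highest medians were the pairs of Mir181a and Mir181b and the miR-199a and miR-214 pair in Dnm3os. The miR-216a and miR-217 cluster at chr11:28757012-28763835 had 4 of 4 higher, and the let-7c and miR-99a cluster at chr16:77598936-77599750 3 of 3. At the low end stood the miR-290, miR-183 and miR-195a clusters. The miR-141 and miR-200c pair at chr6:124717914-124718390 had 3 of 3 lower, and the second miR-200 cluster on chromosome 4 had 3 of 5. The clusters of miR-192 and miR-194-2, of miR-221 and miR-222 and of miR-470, miR-871 and miR-881 had none called.

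At the limits of detection 44 tested miRNAs were at 0 in all day 0 libraries and 10 at 0 in both day 7 libraries, 3 of them at 0 in both groups. Day 7 libraries held several times more miRNA reads, so a 0 at day 0 allows a higher level than a 0 at day 7. On the relative scale 3 reads stand for 3.54 at day 0 and 0.925 at day 7. Of the miRNAs called higher on the relative scale, 37.2% of the 521 tested, 91 had a day 0 mean under 3 reads. The number of tested miRNAs with such a mean equals the number called higher on that scale. Such miRNAs are thus also 37.2% of all tested, and the 91 rises rest on a day 0 level under the floor of 3 reads. miR-3099-3p, in an intron of Usp29, had 85 and 156 reads at day 7 and none at day 0, at least 10.4-fold higher. In the other direction miR-302d-5p had 11, 4 and 4 reads and then none, at least 7.40-fold lower, and miR-29b-3p 2 reads in each day 0 library and then none, at least 2.55-fold lower.

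The change from day 0 to day 7 in D3 was also set against that in the line B8, which went through the same protocol. It differed between the lines for 188 of 521 miRNAs, 36.1% of all tested (interaction term, limma on the relative scale). In 123 the D3 change was the more positive (23.6%) and in 65 the more negative (12.5%), and under each of the 6 scalings 52 and 13 were called in that direction. In B8 the pair of miR-10a-5p and miR-10b-5p started higher and ended lower, with 0.647%, 0.660% and 0.578% of the signal at day 0 and 41.9%, 42.6% and 47.0% at day 7. For miR-10a-5p the B8 change was 6.71, and the D3 change exceeded it by 4.34 ± 0.31 (adjusted p = 8.9e-09).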

How the data were processed

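Small RNA was sequenced from D3 and B8 cells, and 5 D3 libraries were compared here. The authors deposited 1 table of signal values, in which the reads of a mature miRNA are scaled by a single factor in each library. TMM is named in its title, and the file headers name cutadapt and a step on read length. CASAVA, FastQC, Bowtie, Partek and mm10 are named without versions in the submitters' processing notes; the rule for reads that match several miRNAs is not given in the sources used here. Every value of at most 1000 reads was a whole multiple of the value of 1 read, within 0.01 read, so whole reads were recovered, 56377 to 1060306 per D3 library compared. Intervals and floors of 3 reads cover counting error only.

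Log2(value + 0.48), a pseudocount of 2 ppm of the mean column total, was fitted with limma 3.58.1 (R 4.3.3) as 5 group means over 14 libraries with 9 residual degrees of freedom, which share 1 estimate of the spread. Fold changes are on that scale, which understates changes of low miRNAs. Only miRNAs whose share of the column total averaged at least 5 ppm over the libraries were tested, with Benjamini-Hochberg adjustment over all of them and a threshold of 0.05. Relative values are deposited values divided by median-of-ratios factors of the 5 libraries. Hairpin arms needed 10 reads on average in both groups, and miRNAs were summed by seed over all members. No 2 replicates agreed within sampling noise. Alternatives were edgeR 4.0.16 and DESeq2 1.42.0 on recovered reads, 4 other scalings, 2 pseudocounts, 2 filters, 2 arm minimums, a prior without trend, the 5 libraries alone, a replicate block and each library left out. The fits were tested on simulated data.

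Named are the 10 most abundant miRNAs of each group, the 8 largest rises and falls, up to 3 called members and 1 other of each list, 5 hairpins each way, the main seed families with their members, the 5 most abundant miRNAs called opposite ways on the 2 scales, and the 5 most abundant at 0 in 1 group. The 27 lists and this rule were chosen with earlier results of these data known.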

Additional observations from a re-analysis of the deposited data

Results flagged for a closer look

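The change from day 0 to day 7 differed between the D3 and B8 lines for 30 of the 117 named miRNAs that were called in D3, by an interaction term past the threshold under each of the 6 scalings (limma, adjusted p). Many of these miRNAs were named for the size or call of their D3 change. The interaction term contains that same change, so a larger D3 change is favoured among them by the selection. Over all 521 tested miRNAs, that term passed under every scaling for 52 with the D3 change more positive and 13 more negative. The share among named miRNAs therefore cannot be read as an excess. Values are the D3 change minus the B8 change on the relative log2 scale. The labels do not say whether the lines were grown side by side, and whether culture or library bears on these differences was not tested.

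Among mesenchymal and endothelial miRNAs the difference was 6.31 for miR-199a-3p, 5.94 for miR-199b-3p (the same mature sequence), 6.09 for miR-214-3p, 5.84 for miR-214-5p, 4.61 for miR-143-3p, 3.57 for miR-126a-5p and 2.63 for miR-126a-3p. B8 already had miR-199a-3p at day 0, with deposited values of 337.8, 344 and 333, and its B8 change was 0.53. For miR-143-3p the B8 change was −2.09.

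For the Hox-embedded miRNAs the difference was 4.34 for miR-10a-5p, 3.83 for miR-10b-5p, 2.62 for miR-10a-3p, 2.85 for miR-10b-3p and 3.05 for miR-615-3p. In the miR-181 family it was 3.55 for miR-181a-5p, 4.06 for miR-181a-1-3p and 2.47 for miR-181b-5p. In the let-7 and miR-99 groups it was 2.99 for let-7a-5p, 2.39 for let-7e-5p, 3.42 for miR-99a-5p and 2.01 for miR-99b-5p. Pancreatic miR-217-5p and miR-216b-5p differed by 3.60 and 3.29, miR-152-3p and miR-152-5p by 3.67 and 3.42, miR-34c-5p by 2.76 and miR-29a-3p by 2.54. Of these, miR-29a-3p fell in D3 by 0.80 and in B8 by 3.34 on the log2 scale. In all D3 day 0 libraries miR-10a-3p, miR-10b-3p, miR-214-3p, miR-214-5p, miR-216b-5p, miR-217-5p and miR-152-3p were at 0. The size of their differences therefore depends on the pseudocount. In B8 miR-217-5p was also at or near the floor, with deposited values of 0, 0 and 0 at day 0 and 0, 1.12 and 0 at day 7.

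The D3 change was the more negative for 5, by −3.42 for miR-294-5p of the miR-290 cluster and by −3.63 for miR-669a-5p, −3.80 for miR-466d-5p and −4.08 for miR-467c-5p of the Sfmbt2 cluster. The fragment-like entry miR-2137 differed by −3.92. In B8 miR-669a-5p changed by 0.28 and miR-467c-5p by 0.05.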

How the results depend on the processing

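Only 2 day 7 libraries exist in the comparison, the day 0 libraries hold fewer miRNA reads, and no scale gives levels per cell. Equal column totals gave 112 higher and 234 lower miRNAs, 75 and 146 seed families, and 52 and 106 differences between D3 and B8. Deposited values moved the last of these further, to 374 and 13, an alternative chosen after seeing the data. The stricter filter on low values left 227 miRNAs higher as deposited and 79 families higher, with fewer tested. At least 50 reads per arm left 1 hairpin moving to the 5p and 4 to the 3p arm. edgeR and DESeq2 gave 196 and 187 higher miRNAs on the relative scale.

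Leaving out each D3 library gave 339 to 367 miRNAs higher and 30 to 39 lower as deposited, 170 to 193 higher on the relative scale, 48 to 62 families lower, 2 to 4 and 8 to 12 hairpins, and 92 to 140 and 57 to 65 differences from B8. The 2 hairpins moving to the 5p arm were left without day 7 replicate 2 or without day 7 replicate 3. The replicate block gave 195 miRNAs higher on the relative scale, 368 and 39 as deposited, 5 and 14 hairpins, 127 and 64 families and 67 differences with the more negative D3 change. Deviations of same-numbered day 0 and day 7 libraries correlated at 0.0305 and −0.016, so the numbers were not taken as pairs.

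Of the values of named miRNAs under all alternatives, 1996 kept direction and side of the threshold, 34 lost the call, 27 gained one and 34 turned direction. With equal column totals the log2 change turned to −0.63 for miR-128-3p, −1.02 for miR-130a-3p, −0.60 for miR-130b-3p, −0.51 for miR-148b-3p, −0.68 for miR-155-5p, −0.81 for miR-15a-5p, −1.24 for miR-15b-3p, −0.87 for miR-16-5p, −1.32 for miR-181d-5p, −1.39 for miR-221-3p, −1.31 for miR-24-3p, −0.996 for miR-25-3p, −0.23 for miR-26b-5p, −1.09 for miR-27b-3p, −0.69 for miR-29c-3p, −0.42 for miR-30d-5p, −1.12 for miR-30e-5p, −0.45 for miR-34c-5p, −0.37 for miR-375-3p, −1.38 for miR-410-3p and −0.98 for miR-93-5p. Under TMM it was −0.10 for miR-15b-3p, −0.077 for miR-181d-5p, −0.16 for miR-221-3p, −0.12 for miR-24-3p and −0.14 for miR-410-3p. Leaving out 1 library at a time, the change ran from −0.092 (without day 0 replicate 1) to 0.51 for miR-24-3p, which was at −0.076 without day 7 replicate 3. It ran from −0.19 (without day 0 replicate 2) to 0.55 for miR-15b-3p, from −0.20 to 0.20 (without day 0 replicate 2) for miR-192-5p, which was at 0.14 without day 7 replicate 3, from −0.58 to 0.47 (without day 0 replicate 3) for miR-212-3p, and from −0.28 to 0.13 (without day 7 replicate 2) for miR-148a-3p. With the replicate block miR-24-3p was at −0.0019. The cause was not tested.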
